A study of Homo sapiens with 12 samples.

Results

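The expression of 34 genes of sterol and fatty acid synthesis was measured by RNA sequencing in human multiple myeloma cell lines, a cancer of plasma cells, exposed to JQ1, a small molecule that keeps BET bromodomain proteins off acetylated chromatin. The genes were taken by symbol from a table of 60666 Ensembl genes. They were 7 of the mevalonate pathway, 12 of the steps that build cholesterol and 8 regulators and carriers of sterols. The others were 3 of cholesterol export or uptake and 4 of fatty acid synthesis. The groups were KMS-11, KMS-12 and RPMI8226 cells with 1 µM JQ1 for 72 h, each set against the same line with an equal volume of DMSO, with 2 libraries per group and 12 in all. All cells had the genotype WT and grew in RPMI-1640 medium with fetal bovine serum. The DMSO labels give no time of their own, and each line is a long-term culture from a single patient, so a difference between lines is one between these cultures.

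Cells make cholesterol from acetyl-CoA by way of mevalonate, farnesyl diphosphate, squalene and lanosterol, and fatty acids from acetyl-CoA by way of malonyl-CoA. When the membrane of the endoplasmic reticulum is poor in sterol, SCAP carries the precursor proteins encoded by SREBF1 and SREBF2 to the Golgi, where proteases free the part that enters the nucleus and turns on most of these genes. Sterol-bound INSIG1 and INSIG2 hold SCAP back, and oxysterols turn on the export genes ABCA1 and ABCG1 through the LXR receptors.

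Promoter sequences of 29 of the 34 genes were found in the RefSeq table (GRCh38.p14), as windows of 250 bases before and 50 after a start site. A total of 4 are shown, from genes on which the results below turn. SREBF2 lies at chr22:41832855-41833154, INSIG1 at chr7:155297628-155297927, SCD at chr10:100346983-100347282 and FDPS at chr1:155308616-155308915, all on the plus strand. Capitals mark the CCAAT box (CCAAT, or ATTGG on the other strand), the sterol regulatory element (TCACNCCAC) and the E-box (CACGTG); no match overlapped another.
SREBF2: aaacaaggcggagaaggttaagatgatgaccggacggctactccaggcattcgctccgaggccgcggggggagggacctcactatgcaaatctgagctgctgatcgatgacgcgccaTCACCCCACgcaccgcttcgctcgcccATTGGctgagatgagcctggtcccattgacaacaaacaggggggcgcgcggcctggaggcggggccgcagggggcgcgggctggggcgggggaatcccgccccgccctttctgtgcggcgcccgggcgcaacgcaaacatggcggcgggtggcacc
INSIG1: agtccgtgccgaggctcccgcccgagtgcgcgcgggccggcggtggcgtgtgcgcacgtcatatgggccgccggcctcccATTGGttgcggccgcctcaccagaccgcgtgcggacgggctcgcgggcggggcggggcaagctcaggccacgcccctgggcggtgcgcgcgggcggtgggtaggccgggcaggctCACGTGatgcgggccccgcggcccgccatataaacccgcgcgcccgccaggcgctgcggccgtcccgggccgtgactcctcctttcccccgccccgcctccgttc
SCD: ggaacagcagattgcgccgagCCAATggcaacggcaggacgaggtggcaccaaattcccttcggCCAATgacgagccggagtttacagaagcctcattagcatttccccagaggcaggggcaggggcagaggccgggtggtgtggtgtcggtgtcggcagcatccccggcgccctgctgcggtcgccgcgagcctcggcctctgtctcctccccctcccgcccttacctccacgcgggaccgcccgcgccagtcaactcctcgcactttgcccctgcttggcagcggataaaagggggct
FDPS: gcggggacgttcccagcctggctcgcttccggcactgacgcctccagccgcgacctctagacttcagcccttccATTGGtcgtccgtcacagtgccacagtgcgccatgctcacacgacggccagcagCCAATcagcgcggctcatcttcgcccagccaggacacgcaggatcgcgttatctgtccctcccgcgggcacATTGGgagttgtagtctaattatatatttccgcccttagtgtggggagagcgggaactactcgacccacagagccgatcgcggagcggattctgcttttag
The SREBF2 window held a sterol regulatory element 133 bases before the start site and a CCAAT box 106 bases before it. It was the 1 member of 29 (3.45%) with that element, against 379 of 27305 genes with a window (1.39%). FDPS held 3 CCAAT boxes, SCD 2 and INSIG1 1, beside an E-box 55 bases before its start site. A CCAAT box, a motif bound by NF-Y, stood in 21 of the 29 members (72.4%), against 43.4% of the tested protein-coding genes and 39.7% of all genes with a window. The E-box, a motif bound by MYC and MAX among others, stood in 5 members (17.2%), LSS, SC5D, INSIG1, SCAP and ABCA1, against 12.2% of the tested protein-coding genes and 8.77% of all genes with a window. These are matches of letters in 1 window length and were not tested.

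Libraries held 15424512 to 27366499 reads assigned to genes, and levels are given as CPM, a gene's share of a library scaled by TMM (trimmed mean of M-values). All 34 genes passed the filter on low counts, as did 38.7% of the table. ABCG1 had no read in any KMS-12 library, so 33 genes were compared there. HEXIM1, a gene that BET inhibitors are known to raise, rose by 2.46 ± 0.13 (log2 ± SE) in KMS-11 cells (adjusted p = 2.4e-10), by 3.04 ± 0.13 in KMS-12 cells (1.18e-11) and by 2.32 ± 0.13 in RPMI8226 cells (1.09e-09). Other genes looked up for the drug moved less. With TMM scaling, MYC fell in KMS-12 (-0.88) and RPMI8226 (-0.56) and was not called in KMS-11 (-0.47, adjusted p = 0.0679). With library size alone it was called in KMS-11 (-0.74) and KMS-12 (-1.65) but not in RPMI8226 (-0.59, adjusted p = 0.0570). SERPINI1 rose in RPMI8226 (0.44) and was not called in KMS-11 (0.13) or in KMS-12 (0.31 with TMM scaling, but a called -0.46 with library size alone). All 9 plasma cell markers had reads in every library, and they moved in both directions. In KMS-11 1 rose (PRDM1, 1.09) and 4 fell, in RPMI8226 0 rose and 5 fell, and in KMS-12 4 rose and 4 fell with TMM scaling, against 1 and 4 with library size alone. TNFRSF17, SLAMF7 and JCHAIN fell in all 3 lines, and MZB1 in KMS-11 (-3.15) and KMS-12 (-2.44). The summed level of the markers, which rests on the few abundant ones such as JCHAIN and IRF4, was 3240.1 and 4556 CPM in KMS-11 JQ1 libraries and 7473 and 8072 CPM in KMS-11 DMSO libraries. In KMS-12 it was 4104 and 4059.6 CPM with JQ1 and 2514 and 2549.6 CPM with DMSO, where IRF4 alone averaged 2399 CPM with JQ1 and 1424 CPM with DMSO (-0.02 on the log2 scale with library size alone), and in RPMI8226 3392 and 3297 CPM with JQ1 and 5941 and 4902 CPM with DMSO. Lists for B cells, T cells, monocytes, hepatocytes or adipocytes, and erythroid cells each summed to between 0 and 5.09 CPM, with HBB at 0 in all libraries. The list with EPCAM, COL1A1 and PECAM1 summed to 5.09 to 10.3 CPM in JQ1 and 19.7 to 36.2 CPM in DMSO libraries. The proliferation marker MKI67 fell in KMS-11 (log2 -4.09) and KMS-12 (-3.66), and was not called in RPMI8226 cells, where its log2 fold change was 1.04 (adjusted p = 0.253). The part that any of these play in the results was not tested, and fewer cells of a type cannot be told apart from less RNA per cell.

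JQ1 changed these genes in opposite directions in different lines. Among genes called at an adjusted p under 0.05 (edgeR quasi-likelihood test, adjusted over all genes tested), 2 of 34 rose and 15 fell in KMS-11, where 17.3% and 21.2% of all genes tested did so. In RPMI8226, 1 rose and 17 fell, against 13.6% and 18.6% of all genes. In KMS-12, 24 of 33 rose and 4 fell, against 20.2% and 25.7% of all genes, when libraries were scaled by TMM. With library size alone, 9 rose and 12 fell. The higher side then held 42.9% of the members called, against 7.49% of all genes called. The median log2 fold change was -0.45 over the members and 0.00 over all genes tested for KMS-11; for KMS-12 these were 0.76 and -0.06, and for RPMI8226 -0.46 and -0.03. In the average of the 3 lines, 8 of 33 rose and 12 fell, against 22.3% and 26.7% of all genes. In KMS-12 both JQ1 libraries lay above both DMSO libraries for 25 of 33 members (31.6% of all genes) and below them for 6 (40.6%). In KMS-11 they lay above for 3 of 34 (30.0%) and below for 19 (33.5%), and in RPMI8226 above for 3 (30.1%) and below for 24 (35.7%). The counts of falls leaned on single libraries: the RPMI8226 count was 10 without RPMI8226 DMSO replicate 1, and the KMS-11 count was 10 without KMS-11 DMSO replicate 2. The falls in KMS-12 numbered 2 when any 1 of its 4 libraries was left out.

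**Figure D1:**
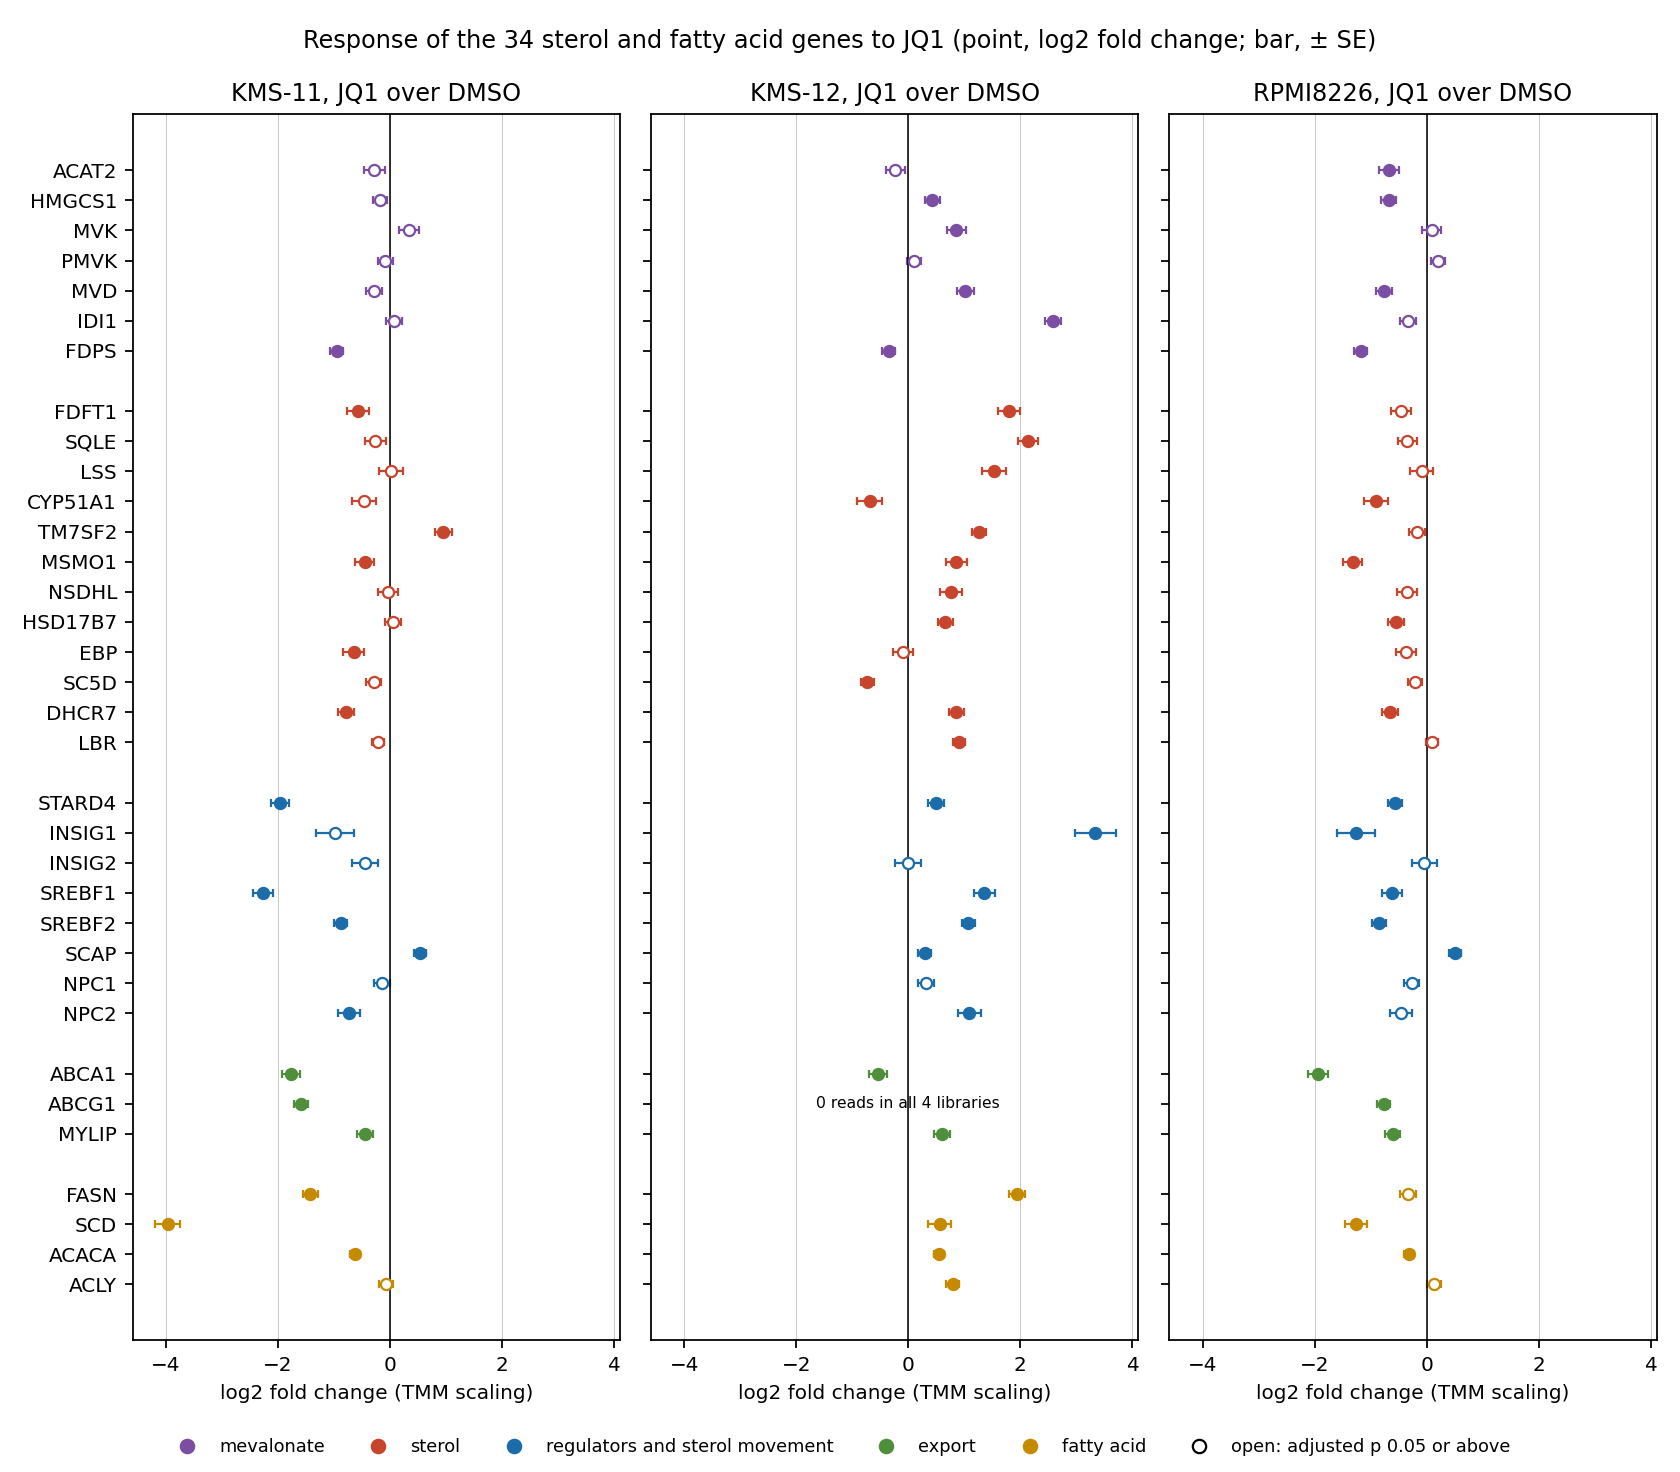
Log2 fold change (JQ1 over DMSO, TMM scaling, x axis) of each of the 34 members in KMS-11, KMS-12 and RPMI8226 cells. Points are fitted values and bars ± SE; filled points have an adjusted p under 0.05. Most filled points lie left of 0 in KMS-11 and RPMI8226 (15 and 17) and right of 0 in KMS-12 (24, or 9 with library size alone).

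The 2 genes of the SREBP factors themselves followed this split. SREBF1, whose product favours fatty acid genes, had 76.5 and 53.3 CPM in KMS-11 JQ1 libraries, against 282 and 341 CPM in KMS-11 DMSO libraries. In KMS-12 it had 126 and 149 CPM with JQ1, against 55.4 and 52.0 CPM with DMSO, and in RPMI8226 338 and 282 CPM with JQ1, against 533 and 422 CPM with DMSO. The groups did not overlap in any line, and JQ1 was the lower group in KMS-11 and RPMI8226 and the higher in KMS-12. The log2 fold change was -2.26 ± 0.18 in KMS-11 (adjusted p = 1.85e-06), 1.36 ± 0.18 in KMS-12 (6.76e-05) and -0.62 ± 0.17 in RPMI8226 cells (0.0172). SREBF2, whose product favours cholesterol genes, had 191 and 216 CPM with JQ1 and 332 and 418 CPM with DMSO in KMS-11. It had 232 and 247 CPM with JQ1 and 122 and 105 CPM with DMSO in KMS-12, and 365 and 327 CPM with JQ1 and 674 and 574 CPM with DMSO in RPMI8226 cells. Again no groups overlapped, with log2 fold changes of -0.88 ± 0.12 in KMS-11 (adjusted p = 1.93e-05), 1.07 ± 0.12 in KMS-12 (1.51e-06) and -0.85 ± 0.12 in RPMI8226 (4.43e-05). In KMS-12 both genes also rose with library size alone, by 0.59 and 0.30. The RPMI8226 fall of SREBF1 was not called without JQ1 replicate 2 (-0.50) or DMSO replicate 1 (-0.45).

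SCAP, the escort of the SREBP precursors, was the 1 member that rose in all 3 lines with TMM scaling, a pattern of 6.04% of all genes; in KMS-12 it reversed to -0.48 with library size alone and to -0.02 without MALAT1 and NEAT1 in the library size. It had 129 and 127 CPM with JQ1 and 95.8 and 80.7 CPM with DMSO in KMS-11, and 107 and 90.8 CPM with JQ1 and 73.4 and 66.6 CPM with DMSO in RPMI8226 cells. In KMS-12 it had 133 and 129 CPM with JQ1 and 113 and 101 CPM with DMSO. The log2 fold change was 0.54 ± 0.11 in KMS-11 (adjusted p = 0.000651; 0.27, not called, with library size alone), 0.29 ± 0.11 in KMS-12 (0.0354) and 0.50 ± 0.11 in RPMI8226 (0.00185). The KMS-12 rise was not called without JQ1 replicate 1 (0.26), JQ1 replicate 2 (0.31) or DMSO replicate 2 (0.21). No difference in the response of SCAP between the lines was called (adjusted p = 0.388).

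The largest rise among the members in KMS-12 was that of INSIG1, a sterol-sensing anchor of SCAP and a known SREBP target, described here after its values were seen. It had 309 and 376 CPM in KMS-12 JQ1 libraries, against 34.9 and 32.8 CPM in KMS-12 DMSO libraries, 10.1-fold higher (log2 3.34 ± 0.37, adjusted p = 0.0003). In KMS-11 it had 90.2 and 156 CPM with JQ1 and 186 and 299 CPM with DMSO (-0.98 ± 0.34, adjusted p = 0.0633), a difference not called, although the libraries did not overlap. INSIG1 stayed uncalled there under 15 of 21 alternative settings and was called under the others. Among those were leaving out JQ1 replicate 2 (-1.42) or DMSO replicate 1 (-1.28). In RPMI8226 cells it had 167 and 135 CPM with JQ1 and 426 and 302 CPM with DMSO (-1.27 ± 0.34, adjusted p = 0.0297), a fall that was not called without JQ1 replicate 1 (-1.43), JQ1 replicate 2 (-1.12) or DMSO replicate 1 (adjusted p = 0.130). Its paralog INSIG2 was called in no line, with log2 fold changes of -0.44 in KMS-11 cells, 0.00 in KMS-12 cells and -0.04 in RPMI8226. The KMS-12 value of INSIG2 was -0.77 with library size alone, and the KMS-11 value was called without DMSO replicate 1 (-0.81). The ratio of INSIG1 to INSIG2 counts, in which scaling cancels, was 7.39 and 9.15 in KMS-12 JQ1 libraries, against 0.906 and 0.738 in KMS-12 DMSO libraries. In KMS-11 it was 2.49 and 4.24 with JQ1 and 5.25 and 4.66 with DMSO, and in RPMI8226 4.58 and 2.97 with JQ1 and 10.8 and 6.78 with DMSO. The ratio was thus higher with JQ1 in KMS-12 and lower with JQ1 in both other lines, with no overlap.

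Among the sterol carriers, STARD4, which moves cholesterol between membranes, fell most in KMS-11. It had 4.57 and 6.51 CPM with JQ1 and 19.9 and 23.3 CPM with DMSO there (-1.97 ± 0.16, adjusted p = 5.65e-08). In KMS-12 it had 43.4 and 40.4 CPM with JQ1 and 33.0 and 26.7 CPM with DMSO (0.49 ± 0.14, adjusted p = 0.0078), and the value was -0.28 with library size alone. In RPMI8226 cells it had 91.6 and 94.7 CPM with JQ1 and 150.0 and 127 CPM with DMSO (-0.57 ± 0.13, adjusted p = 0.00317). The libraries of the groups did not overlap in any line. The KMS-12 rise was not called without JQ1 replicate 1 (0.43) or DMSO replicate 2 (0.34), nor the RPMI8226 fall without DMSO replicate 1 (-0.45). NPC2, which hands cholesterol out of lysosomes, rose by 1.09 ± 0.20 in KMS-12 (0.32, not called, with library size alone) and fell by 0.73 on the log2 scale in KMS-11, though not without DMSO replicate 1 (-0.75) or DMSO replicate 2 (-0.69). Its partner NPC1 was called in no line, with -0.14 in KMS-11 cells, 0.32 in KMS-12 cells and -0.27 in RPMI8226. The KMS-12 value of NPC1 was -0.45 with library size alone. NPC1 was called in KMS-11 without KMS-11 DMSO replicate 1 (-0.39), and in KMS-12 without KMS-12 DMSO replicate 1 (0.48). Without KMS-11 DMSO replicate 1 or 2 it was also called in KMS-12 (0.32 and 0.33) and in RPMI8226 (-0.27 and -0.29). NPC2 was -0.46 in RPMI8226, not called; it was called under 5 alternatives, which were DESeq2 (-0.50), the RPMI8226 libraries alone (-0.42), no filter on low counts, and leaving out KMS-11 JQ1 replicate 1 or 2 (-0.46 each time).

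**Figure D2:**
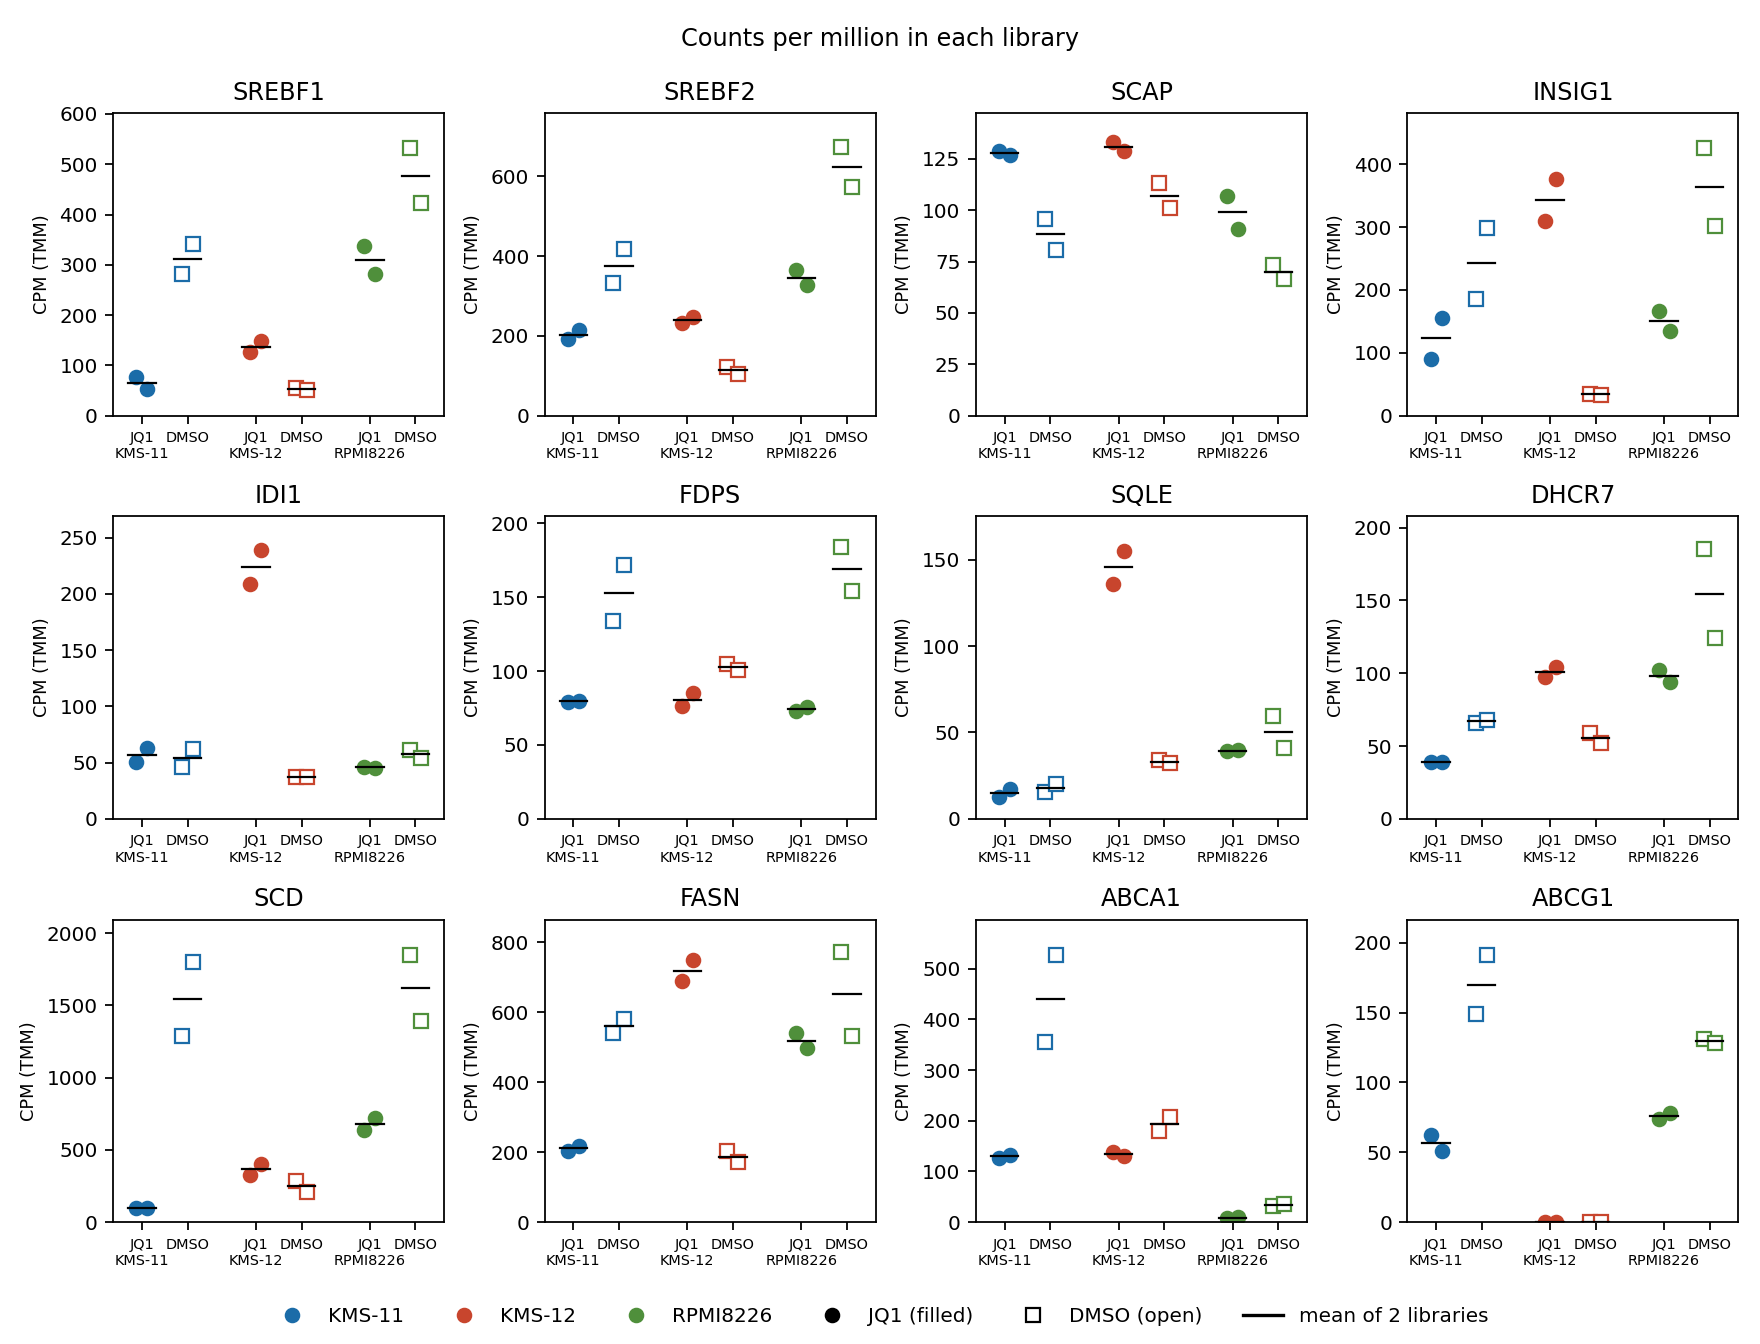
CPM (TMM scaling, linear axis from 0) of 12 members in each library, with JQ1 as filled circles, DMSO as open squares and the mean of 2 libraries as a bar. INSIG1, IDI1 and SQLE stand high in the KMS-12 JQ1 libraries, SCD is low in the KMS-11 JQ1 libraries (99.6 and 97.8 CPM), and ABCG1 is at 0 in KMS-12.

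In the mevalonate pathway the 7 genes did not move as 1 block. FDPS, which makes farnesyl diphosphate, fell in all 3 lines, a pattern shared by 2 members (with ABCA1) and 6.37% of all genes. It had 79.1 and 79.9 CPM with JQ1 and 134 and 172 CPM with DMSO in KMS-11, and 72.9 and 75.8 CPM with JQ1 and 184 and 154 CPM with DMSO in RPMI8226 cells. In KMS-12 it had 76.1 and 85.0 CPM with JQ1 and 105 and 101 CPM with DMSO. The JQ1 libraries of all lines lay between 72.9 and 85.0 CPM, while the DMSO libraries of KMS-12 lay below those of the other lines. The log2 fold change was -0.95 ± 0.12 in KMS-11 (adjusted p = 5.04e-06), -0.35 ± 0.12 in KMS-12 (0.0198) and -1.18 ± 0.12 in RPMI8226 (8.21e-07). The KMS-12 fall was not called without JQ1 replicate 1 (-0.27), DMSO replicate 1 (-0.33) or DMSO replicate 2 (-0.38). IDI1, the isomerase one step before FDPS, moved the other way in KMS-12, with 209 and 239 CPM with JQ1 and 37.6 and 37.5 CPM with DMSO (2.58 ± 0.14, adjusted p = 4.53e-10). In KMS-11 it had 50.7 and 63.3 CPM with JQ1 and 46.1 and 62.2 CPM with DMSO, which overlapped (0.07 ± 0.14, adjusted p = 0.737). In RPMI8226 it had 46.5 and 44.9 CPM with JQ1 and 61.2 and 54.2 CPM with DMSO (-0.34 ± 0.14, adjusted p = 0.071). This fall stayed uncalled under 13 of 21 alternative settings and was called under the others. Among those were leaving out KMS-11 DMSO replicate 1 (-0.33) or KMS-11 DMSO replicate 2 (-0.35). The ratio of IDI1 to FDPS counts was 2.74 and 2.81 in KMS-12 JQ1 libraries, against 0.359 and 0.371 in KMS-12 DMSO libraries. It was higher with JQ1 in the other lines too, at 0.640 and 0.792 with JQ1 and 0.343 and 0.361 with DMSO in KMS-11, and 0.638 and 0.592 with JQ1 and 0.332 and 0.353 with DMSO in RPMI8226 cells.

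Of the other mevalonate genes, MVD, which decarboxylates mevalonate diphosphate, averaged 24.7 ± 1.86 CPM with JQ1 and 12.2 ± 1.11 CPM with DMSO in KMS-12 (SD, n = 2; log2 1.02 ± 0.15, adjusted p = 2.29e-05; 0.25, not called, with library size alone). It fell in RPMI8226 cells, with 27.2 and 24.4 CPM with JQ1 and 50.9 and 36.5 CPM with DMSO (-0.76 ± 0.14, adjusted p = 0.000592), and had 42.4 and 47.7 CPM with JQ1 and 55.0 and 55.1 CPM with DMSO in KMS-11 (-0.29, adjusted p = 0.116). HMGCS1, the synthase that forms HMG-CoA, had 51.5 and 57.1 CPM with JQ1 and 37.7 and 43.0 CPM with DMSO in KMS-12 (0.43 ± 0.13, adjusted p = 0.0147). That rise became a fall of -0.34 with library size alone and was not called without JQ1 replicate 2 (0.35) or DMSO replicate 1 (0.33). HMGCS1 fell in RPMI8226 cells, with 56.8 and 55.8 CPM with JQ1 and 95.4 and 84.5 CPM with DMSO (-0.68 ± 0.13, adjusted p = 0.000834). In KMS-11 it had 42.9 and 53.4 CPM with JQ1 and 47.2 and 61.8 CPM with DMSO (-0.18, adjusted p = 0.327), called without DMSO replicate 1 (-0.36). MVK, the mevalonate kinase, had 28.9 and 35.7 CPM with JQ1 and 17.1 and 18.4 CPM with DMSO in KMS-12 (0.86 ± 0.17, adjusted p = 0.000422; 0.09 with library size alone). Its groups overlapped in RPMI8226, at 35.4 ± 4.68 CPM with JQ1 and 33.3 ± 6.13 CPM with DMSO (SD, n = 2). In KMS-11 MVK had 14.7 and 17.9 CPM with JQ1 and 11.2 and 14.6 CPM with DMSO, called without DMSO replicate 2 (0.55). PMVK, the kinase after MVK, was called in no line as fitted by TMM (-0.08 in KMS-11 cells, 0.10 in KMS-12 cells and 0.20 in RPMI8226), with -0.67 in KMS-12 with library size alone. ACAT2, which joins acetyl-CoA units, fell in RPMI8226 (-0.68 ± 0.18) and not as called in KMS-11 (-0.28; called at -0.54 without DMSO replicate 1) or KMS-12 (-0.23), though the RPMI8226 fall was not called without JQ1 replicate 1 (-0.64) or DMSO replicate 1 (-0.61).

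From squalene to cholesterol, 9 of 12 genes rose in KMS-12 and 2 fell, against 20.2% and 25.7% of all genes; with library size alone the KMS-12 rises kept their call for FDFT1, SQLE, LSS and TM7SF2. In KMS-11 1 of the 12 rose and 4 fell (17.3% and 21.2% of all genes), and in RPMI8226 0 rose and 4 fell (13.6% and 18.6%). SQLE, the squalene epoxidase, had 136 and 155 CPM with JQ1 and 33.8 and 32.4 CPM with DMSO in KMS-12 (2.14 ± 0.18, adjusted p = 3.48e-07). It had 12.8 and 17.3 CPM with JQ1 and 15.8 and 20.3 CPM with DMSO in KMS-11, and 39.0 and 39.6 CPM with JQ1 and 59.5 and 41.1 CPM with DMSO in RPMI8226 cells. SQLE was called in neither of these (adjusted p = 0.304 and 0.141), but was in RPMI8226 without DMSO replicate 2 (-0.60). TM7SF2, a sterol C14 reductase, rose in KMS-12, with 161 and 148 CPM with JQ1 and 66.6 and 62.1 CPM with DMSO (1.26 ± 0.12, adjusted p = 2.28e-07). It also rose in KMS-11, with 10.3 and 12.8 CPM with JQ1 and 6.46 and 5.42 CPM with DMSO (0.95 ± 0.15, adjusted p = 6.06e-05). In RPMI8226 its groups overlapped, at 17.5 and 14.7 CPM with JQ1 and 19.5 and 16.8 CPM with DMSO. LBR, another sterol C14 reductase, which also anchors chromatin at the nuclear envelope, rose by 0.91 ± 0.11 in KMS-12 alone among the lines as called (0.14, not called, with library size alone), and was called in KMS-11 (-0.41) without DMSO replicate 1. FDFT1, the squalene synthase, rose by 1.80 ± 0.19 and LSS, which closes the sterol rings, by 1.53 ± 0.22 in KMS-12. FDFT1 fell in KMS-11 (-0.57 ± 0.19), though not without JQ1 replicate 1 (-0.63), JQ1 replicate 2 (-0.52) or DMSO replicate 2 (-0.37). In RPMI8226 it stayed uncalled under 16 of 21 alternative settings and was called under the others, among them without DMSO replicate 2 (-0.70).

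The later sterol enzymes were more mixed. DHCR7, the reductase of the last step in one branch, had 97.6 and 104 CPM with JQ1 and 59.0 and 52.0 CPM with DMSO in KMS-12 (0.86 ± 0.14, adjusted p = 0.000108; 0.09, not called, with library size alone). It fell in KMS-11, with 38.8 and 38.9 CPM with JQ1 and 66.1 and 68.2 CPM with DMSO (-0.79 ± 0.14, adjusted p = 0.000397), and in RPMI8226, with 102 and 94.0 CPM with JQ1 and 185 and 124 CPM with DMSO (-0.65 ± 0.14, adjusted p = 0.00199). The RPMI8226 fall was not called without DMSO replicate 1 (-0.34). SC5D, the sterol C5 desaturase, fell in KMS-12 under every scaling, with 37.7 and 38.1 CPM with JQ1 and 63.8 and 62.3 CPM with DMSO (-0.73 ± 0.12, adjusted p = 0.0001). It had 18.7 and 20.8 CPM with JQ1 and 24.0 and 24.3 CPM with DMSO in KMS-11, and 31.0 and 27.3 CPM with JQ1 and 37.9 and 29.6 CPM with DMSO in RPMI8226 cells, neither called. CYP51A1, the lanosterol demethylase, had 3.58 and 3.89 CPM with JQ1 and 6.38 and 5.68 CPM with DMSO in KMS-12 (-0.69 ± 0.22, adjusted p = 0.0161), and 4.97 and 5.17 CPM with JQ1 and 10.7 and 8.36 CPM with DMSO in RPMI8226 (-0.91 ± 0.21, adjusted p = 0.00326). In KMS-11 it had 4.14 and 5.22 CPM with JQ1 and 6.19 and 6.63 CPM with DMSO (adjusted p = 0.108). The KMS-12 fall of CYP51A1 was not called without JQ1 replicate 1 (-0.63), JQ1 replicate 2 (-0.75) or DMSO replicate 1 (-0.60), nor the RPMI8226 fall without DMSO replicate 1 (-0.72). Its reads, 1586 in all libraries, are uncertain, since 79.4% of its exon bases overlap a second annotated gene on the same strand. MSMO1, NSDHL and HSD17B7, which act together to remove methyl groups from the sterol ring, rose in KMS-12 by 0.86 ± 0.18, 0.76 ± 0.19 and 0.66 ± 0.13; with library size alone they were at 0.09, -0.01 and -0.11. MSMO1 fell by 1.32 on the log2 scale in RPMI8226. Its fall in KMS-11 (-0.45, adjusted p = 0.0466) was not called without any 1 of 9 libraries, the 4 of KMS-12, both JQ1 libraries of RPMI8226 and those of KMS-11 other than DMSO replicate 1, at -0.24 without KMS-11 DMSO replicate 2 and -0.43 to -0.48 without the others. HSD17B7 fell by 0.55 in RPMI8226, with a near copy in the genome that could share its reads. EBP, the sterol isomerase, fell in KMS-11 (-0.65 ± 0.18), but not without JQ1 replicate 1 (-0.47) or DMSO replicate 2 (-0.36), and was called in RPMI8226 (-0.39) without KMS-11 DMSO replicate 2.

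Fatty acid genes had a median response difference of 2.27 between KMS-12 and KMS-11, against 0.96 for the sterol genes and 1.88 for the regulators, but of -1.34 between RPMI8226 and KMS-12, close to -1.32 and -1.30 for those groups; the ranking was not tested. SCD, the desaturase that makes oleate, had 99.6 and 97.8 CPM in KMS-11 JQ1 libraries, against 1288 and 1799 CPM in KMS-11 DMSO libraries (-3.97 ± 0.23, adjusted p = 1.89e-07). It had 637 and 718 CPM with JQ1 and 1852 and 1395 CPM with DMSO in RPMI8226 cells (-1.26 ± 0.20, adjusted p = 0.000746). In KMS-12 it had 326 and 404 CPM with JQ1 and 287 and 208 CPM with DMSO (0.56 ± 0.20, adjusted p = 0.0426), at -0.21 with library size alone. That rise was not called without any 1 of 6 libraries, at 0.35 without KMS-12 DMSO replicate 2, 0.40 without KMS-12 JQ1 replicate 2 and 0.56 without either JQ1 library of KMS-11 or of RPMI8226. FASN, the fatty acid synthase, had 688 and 749.8 CPM with JQ1 and 202 and 172 CPM with DMSO in KMS-12 (1.94 ± 0.14, adjusted p = 2.37e-08). In KMS-11 it had 204 and 217 CPM with JQ1 and 542 and 581 CPM with DMSO (-1.42 ± 0.14, adjusted p = 1.07e-06). In RPMI8226 cells FASN had 541 and 497 CPM with JQ1 and 771 and 531 CPM with DMSO, which overlapped (-0.33 ± 0.14, adjusted p = 0.0873), and was called without DMSO replicate 2 (-0.57). The ratio of FASN to SCD counts was 2.04 and 2.22 with JQ1 and 0.421 and 0.323 with DMSO in KMS-11, 2.11 and 1.86 with JQ1 and 0.703 and 0.825 with DMSO in KMS-12, and 0.849 and 0.693 with JQ1 and 0.416 and 0.380 with DMSO in RPMI8226 cells. It was higher with JQ1 in every line, whichever way the 2 genes moved.

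ACACA, the carboxylase that makes malonyl-CoA, had 131 and 129 CPM with JQ1 and 197 and 205 CPM with DMSO in KMS-11 (-0.63 ± 0.09, adjusted p = 3.65e-05). In KMS-12 it had 314 and 291 CPM with JQ1 and 212 and 205 CPM with DMSO (0.54 ± 0.09, adjusted p = 0.00012), which became a fall of -0.23 with library size alone. In RPMI8226 it had 178 and 179 CPM with JQ1 and 239 and 206 CPM with DMSO (-0.32 ± 0.09, adjusted p = 0.015), not called without JQ1 replicate 1 (-0.31), JQ1 replicate 2 (-0.32) or DMSO replicate 1 (-0.20). ACLY, the citrate lyase that supplies cytosolic acetyl-CoA to both pathways, changed in KMS-12 only as called, with 235 and 236 CPM with JQ1 and 139.8 and 132 CPM with DMSO (0.79 ± 0.12, adjusted p = 2.29e-05; 0.02, not called, with library size alone). Its groups overlapped elsewhere, at 269 and 303 CPM with JQ1 and 265 and 336 CPM with DMSO in KMS-11, and 241 and 219 CPM with JQ1 and 227 and 194 CPM with DMSO in RPMI8226 cells.

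The 3 genes of cholesterol export or uptake fell in KMS-11 and RPMI8226. ABCA1, which loads cholesterol onto apolipoprotein A-I, had 126 and 133 CPM with JQ1 and 355 and 527 CPM with DMSO in KMS-11 (-1.77 ± 0.16, adjusted p = 1.5e-06). It had 138 and 130.0 CPM with JQ1 and 179.8 and 208 CPM with DMSO in KMS-12 (-0.54 ± 0.16, adjusted p = 0.0121), and 7.79 and 9.56 CPM with JQ1 and 31.0 and 35.5 CPM with DMSO in RPMI8226 cells (-1.94 ± 0.18, adjusted p = 4.58e-06). Both JQ1 libraries lay below both DMSO libraries in all lines for 4 members, ABCA1, FDPS, CYP51A1 and EBP. Of these, ABCA1 and FDPS were called in all lines. The share of all genes with that order in every line was not counted. Taken 1 line at a time, it was 33.5% of all genes for KMS-11, 40.6% for KMS-12 and 35.7% for RPMI8226. These shares follow a looser rule than the count of 4 and are no background for it. Nothing particular to the members is read from that count. The KMS-12 fall of ABCA1 was not called without JQ1 replicate 2 (-0.50) or DMSO replicate 2 (-0.43). ABCG1, which passes cholesterol to mature lipoproteins, had 62.0 and 50.9 CPM with JQ1 and 149 and 191 CPM with DMSO in KMS-11 (-1.59 ± 0.13, adjusted p = 1.11e-07). It had 73.8 and 78.1 CPM with JQ1 and 131 and 128 CPM with DMSO in RPMI8226 cells (-0.77 ± 0.12, adjusted p = 0.000213). With 0 reads in KMS-12, its DMSO level was at least 3134-fold higher in KMS-11 and at least 2397-fold higher in RPMI8226 than in KMS-12, against a floor of 3 counts over the group. MYLIP, a ligase that marks lipoprotein receptors for breakdown, had 21.3 and 20.2 CPM with JQ1 and 13.9 and 13.5 CPM with DMSO in KMS-12 (0.60 ± 0.15, adjusted p = 0.00258; -0.17 with library size alone). It fell in RPMI8226, with 75.9 and 63.1 CPM with JQ1 and 108 and 104 CPM with DMSO (-0.61 ± 0.13), and in KMS-11, with 40.4 and 42.8 CPM with JQ1 and 47.0 and 66.6 CPM with DMSO (-0.45 ± 0.14), though the KMS-11 fall was not called without JQ1 replicate 1 (-0.41) or DMSO replicate 2 (-0.16).

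The responses of the lines were compared directly. With TMM scaling, the response differed among the lines for 25 of 33 members, where 30.1% of all genes did. With library size alone, that difference was not called for HMGCS1, MVK, FDPS, NSDHL and HSD17B7. ACAT2, PMVK, EBP, SC5D, INSIG2, SCAP and NPC1 gained a call under at least 1 alternative setting. The values that follow are with TMM scaling. Library size alone moved the median response of all genes by -0.77 in KMS-12, -0.26 in KMS-11 and -0.03 in RPMI8226. The response of KMS-12 was higher than that of KMS-11 for 23 of 33 members and lower for 0, against 10.1% and 9.87% of all genes; the median difference was 1.13. The response of RPMI8226 was lower than that of KMS-12 for 26 and higher for 1, SC5D, against 11.1% and 12.3% of all genes. The SC5D difference (0.53 ± 0.18, adjusted p = 0.0403) was not called without any 1 of 6 libraries, the 4 of KMS-12 (0.51 to 0.54), RPMI8226 JQ1 replicate 1 (0.43) or RPMI8226 DMSO replicate 2 (0.36). RPMI8226 and KMS-11 were closer, with 5 members higher and 3 lower in RPMI8226, against 6.70% and 4.72% of all genes (11.4% in either direction), and 13 called in all without KMS-11 DMSO replicate 2. The 5 were STARD4 (difference 1.40 ± 0.21), SREBF1 (1.64 ± 0.25), ABCG1 (0.82 ± 0.18), FASN (1.09 ± 0.20) and SCD (2.71 ± 0.29), each of which had fallen further in KMS-11. TM7SF2 was lower in RPMI8226 (-1.12 ± 0.20), as were MSMO1 (-0.87) and HSD17B7 (-0.61, adjusted p = 0.0495). The MSMO1 difference was not called without any 1 of 6 libraries, KMS-11 JQ1 replicate 1 or 2, KMS-11 DMSO replicate 1, RPMI8226 JQ1 replicate 1 or 2, or RPMI8226 DMSO replicate 1 (-0.53 to -0.91). The HSD17B7 difference was not called without any library but KMS-11 DMSO replicate 1 (-0.57 to -0.65). The differences between KMS-12 and KMS-11 were greatest for SCD (4.53 ± 0.30), INSIG1 (4.31 ± 0.50), SREBF1 (3.62 ± 0.26) and FASN (3.36 ± 0.20).

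**Figure D3:**
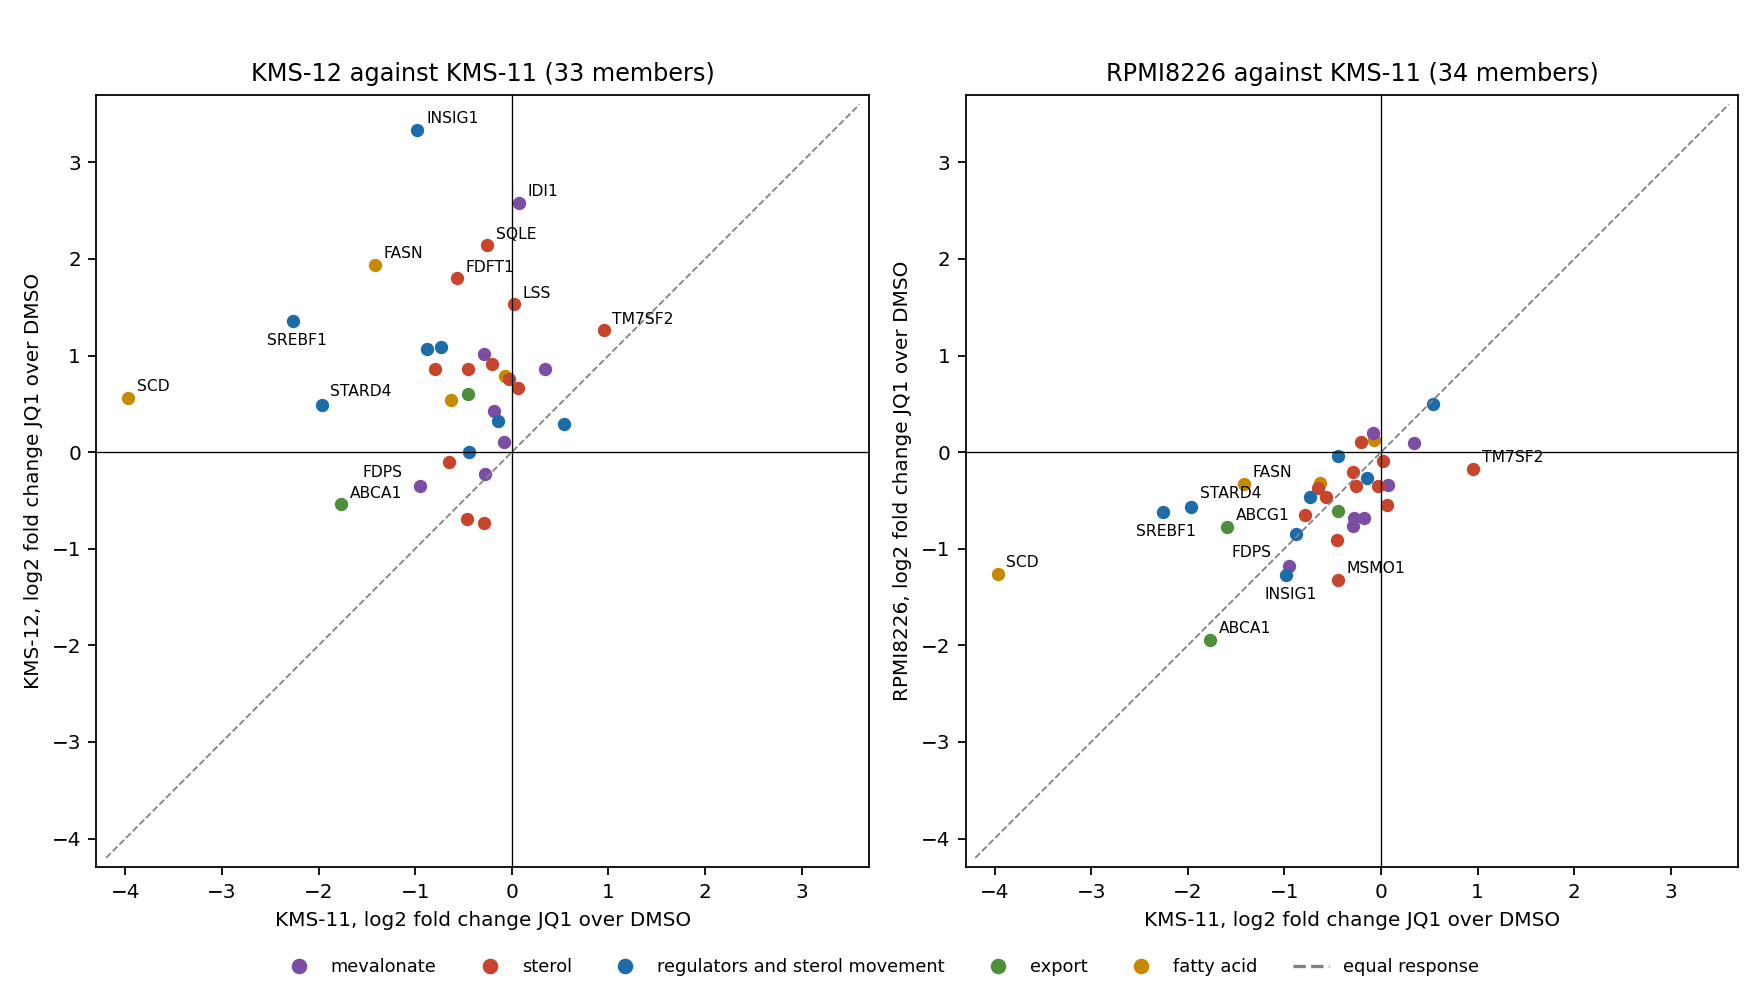
Log2 fold change (JQ1 over DMSO, TMM scaling) of each member in KMS-12 (left, y axis, 33 members) and RPMI8226 (right, y axis, 34 members) against KMS-11 (x axis), with the line of equal response dashed. Most members lie above the dashed line on the left, with INSIG1 highest, and on the right most lie near or below 0 on both axes. With library size alone the median of the KMS-12 members is -0.01, against 0.76 as plotted.

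With TMM scaling, 11 members fell in KMS-11 and rose in KMS-12 (1.58% of all genes), and 12 fell in RPMI8226 and rose in KMS-12 (1.69%). The 8 in both sets fell in KMS-11 and RPMI8226 and rose in KMS-12, against 0.817% of all genes: MSMO1, DHCR7, STARD4, SREBF1, SREBF2, MYLIP, SCD and ACACA. Only SREBF1 and SREBF2 of these also rose in KMS-12 with library size alone. A total of 7 rose in KMS-12 and were called in neither other line (6.53% of all genes): MVK, IDI1, SQLE, LSS, NSDHL, LBR and ACLY. Those called in no line were PMVK, INSIG2 and NPC1 (33.4% of all genes). Across members, the responses of RPMI8226 and KMS-11 had a Pearson r of 0.58 (34 genes), against 0.03 for KMS-12 and KMS-11 and 0.05 for RPMI8226 and KMS-12 (33 genes each). Over all genes tested the same values were 0.37, 0.38 and 0.31. These describe genes of 1 pathway and are not independent points.

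The number of members called higher in KMS-12 depended on how libraries were scaled. The long non-coding RNAs MALAT1 and NEAT1 took 35.7% and 35.1% of reads in KMS-12 JQ1 libraries, against 10.6% and 11.2% in KMS-12 DMSO libraries. The shares were 20.0% and 17.5% with JQ1 and 5.4% and 5.5% with DMSO in KMS-11, and 8.7% and 8.1% with JQ1 and 5.6% and 5.8% with DMSO in RPMI8226. TMM, which trims extreme genes, gave the KMS-12 JQ1 libraries factors of 0.7241 and 0.7184, against 1.23 and 1.23 for the KMS-12 DMSO libraries. With library size alone, the median of all genes in KMS-12 was -0.82, a shift of -0.77 from TMM, and that of the members was -0.01, against 0.76 with TMM. A change of scaling moves every gene of a line by about the same amount, so the like move of both medians is no separate result. The share of higher among the called genes in KMS-12 was 44.0% with TMM, 24.6% with library size without MALAT1 and NEAT1, and 7.49% with library size alone. Among the called members the same shares were 85.7%, 78.3% and 42.9%. In KMS-11 library size alone moved the median of all genes by -0.26, gave 1 member higher and 27 lower, and put 23.8% of all calls on the higher side, against 45.0% with TMM. The same setting moved RPMI8226 by -0.03, with 1 member higher and 19 lower. RLE scaling gave the same 24 and 4 in KMS-12 as TMM. The members together held 0.344% and 0.363% of all reads in KMS-12 JQ1 libraries, against 0.314% and 0.292% in KMS-12 DMSO libraries. In KMS-11 they held 0.213% and 0.236% with JQ1 and 0.537% and 0.649% with DMSO, and in RPMI8226 0.443% and 0.431% with JQ1 and 0.773% and 0.624% with DMSO.

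A total of 9 members rose in KMS-12 under both TMM and library size alone: IDI1, FDFT1, SQLE, LSS, TM7SF2, INSIG1, SREBF1, SREBF2 and FASN. HMGCS1, SCAP and ACACA were higher with TMM and lower with library size alone, and 12 that rose with TMM were not called with library size alone. FDPS, CYP51A1, SC5D and ABCA1 fell under both. A ratio of 2 members within a library carries no scaling. INSIG1 to FDPS was 4.06 and 4.42 in KMS-12 JQ1 libraries, against 0.333 and 0.325 in KMS-12 DMSO libraries, while it overlapped in KMS-11 (1.14 and 1.96 with JQ1, 1.38 and 1.73 with DMSO) and in RPMI8226 (2.29 and 1.78 with JQ1, 2.31 and 1.97 with DMSO). These members therefore changed unequally in KMS-12 whatever the scaling.

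**Figure D4:**
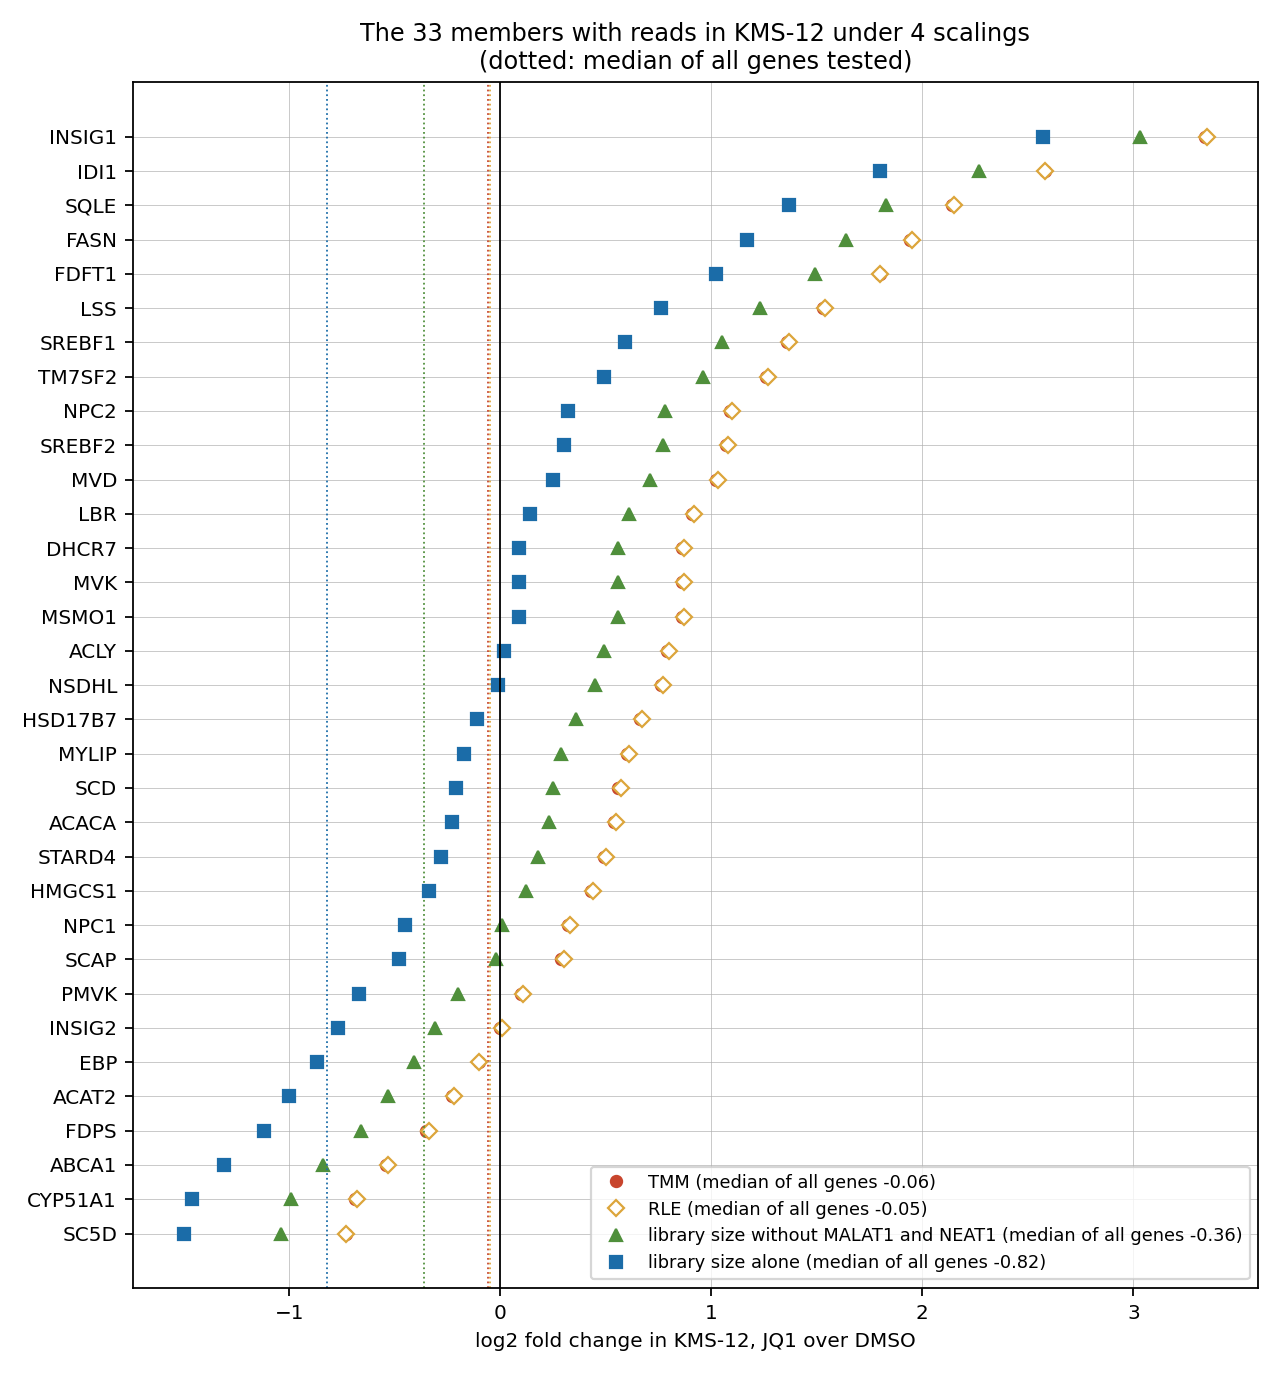
Log2 fold change (JQ1 over DMSO, x axis) in KMS-12 of the 33 members with reads there under 4 scalings, with the median of all genes tested as dotted lines. Every member shifts left with library size alone, as the median of all genes does (-0.82, against -0.06 with TMM). With library size alone 9 rise and 12 fall, against 24 and 4 with TMM. The higher side then holds 42.9% of the members called, against 7.49% of all genes called.

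The DMSO libraries of the lines also differed in these genes. In DMSO libraries, 8 members were higher and 19 lower in KMS-12 than in KMS-11, against 30.2% and 32.7% of all genes. RPMI8226 was higher than KMS-12 for 24 members and lower for 6 (33.2% and 29.3% of all genes), and higher than KMS-11 for 15 and lower for 5 (30.0% and 28.2%). SREBF1 in DMSO was lower in KMS-12 than in KMS-11 (log2 -2.54 ± 0.19, adjusted p = 1.58e-07), as was SREBF2 (-1.72 ± 0.13, 1.26e-09). INSIG1 (-2.84 ± 0.37), SCD (-2.64 ± 0.21), FASN (-1.59 ± 0.14) and MYLIP (-2.05 ± 0.14) were lower in KMS-12 than in KMS-11 as well. TM7SF2 stood the other way, 3.43 ± 0.14 higher in KMS-12 than in KMS-11. The level differences between KMS-12 and the other lines use the same DMSO libraries as the responses, so the 2 sets of values are given side by side only.

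Per kilobase of exon (RPKM, CPM divided by exon length), SCD was the most abundant member in DMSO cells of KMS-11 (288 RPKM) and RPMI8226 (303 RPKM), while LBR was in KMS-12 (60.0 RPKM). With JQ1, the highest was ACLY in KMS-11 (54.8 RPKM), LBR in KMS-12 (113 RPKM, followed by INSIG1 at 93.8 RPKM) and SCD in RPMI8226 (126 RPKM). ACAT2 (1.99 to 6.02 RPKM) and CYP51A1 (1.04 to 2.66 RPKM) were low in all 6 groups, but both levels are uncertain. A second gene on the same strand overlaps 79.4% of the CYP51A1 exon bases. On the other strand, SOD2-OT1 overlaps 33.9% of the ACAT2 exon bases, SOD2 26.5% and TCP1 9.2%. Whether strand was used in counting is not known. TM7SF2 was at 45.2 RPKM with JQ1 and 18.9 RPKM with DMSO in KMS-12, but at 5.32 RPKM or below in the other groups. These are means of 2 libraries with no test between genes.

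**Figure D5:**
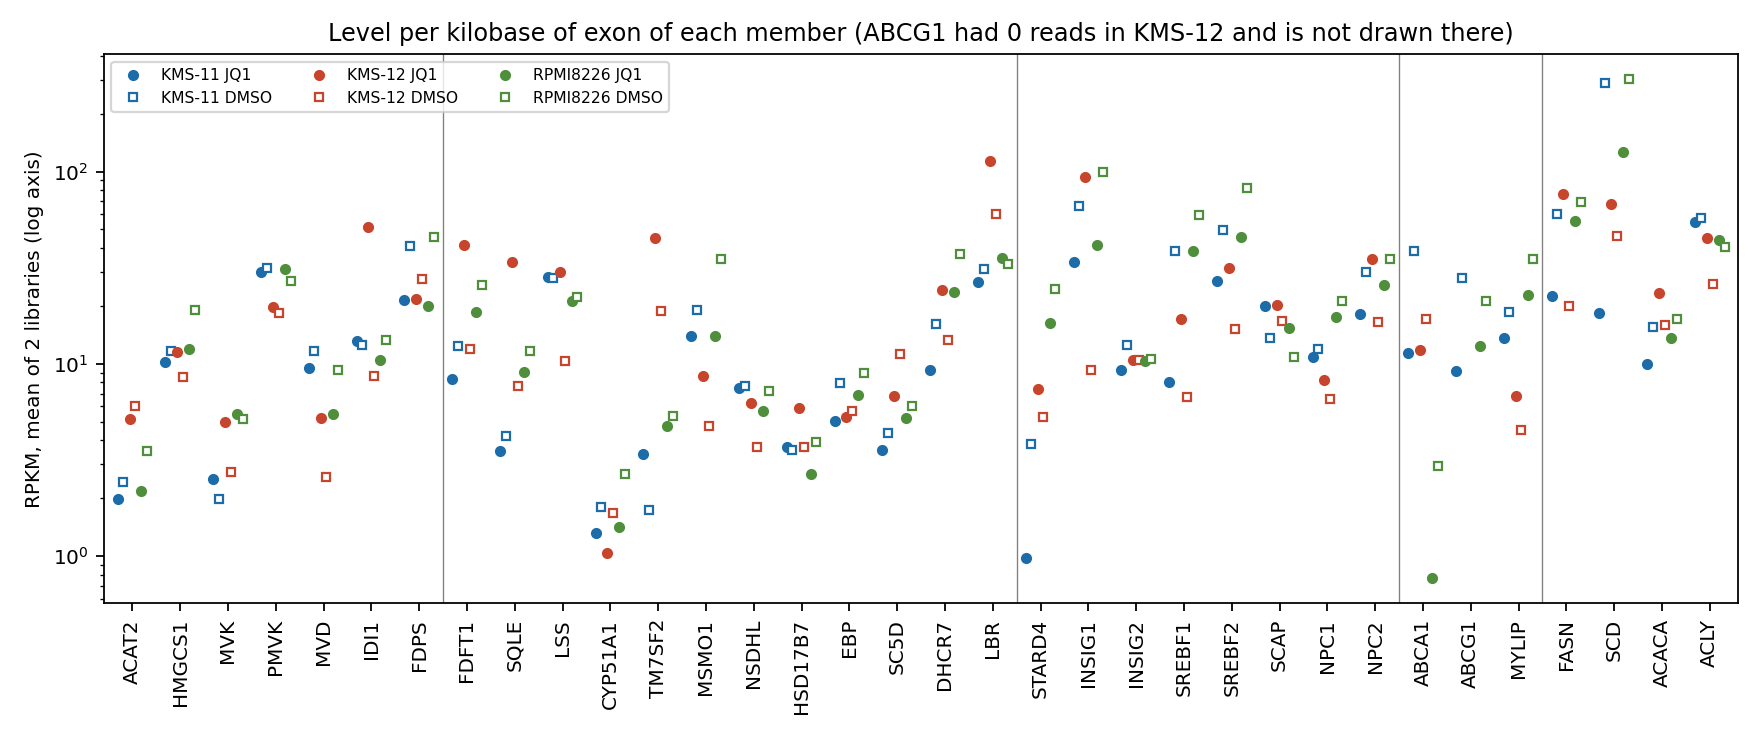
Level of each member in RPKM (CPM per kilobase of exon, log axis, mean of 2 libraries) in the 6 groups, with JQ1 filled and DMSO open, ordered by pathway step with lines between the 5 gene groups. SCD reaches 288 and 303 RPKM in DMSO cells of KMS-11 and RPMI8226. CYP51A1 stays at 2.66 RPKM or below, a level that is uncertain since another gene overlaps most of its exon bases.

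A wider list of 61 genes of the same pathways, 60 of them tested, was less one-sided in its counts. In KMS-11 cells 17 rose and 16 fell (median log2 fold change 0.02), against 17.3% and 21.2% of all genes. With TMM scaling, KMS-12 cells had 21 that rose and 12 that fell (0.14), against 20.2% and 25.7% of all genes. RPMI8226 cells had 12 that rose and 15 that fell (0.05), against 13.6% and 18.6%. Library size alone moved the median of all genes in KMS-12 by -0.77. A gene without reads in KMS-12 was kept among the 60, unlike ABCG1 among the members. Nothing particular to the list is read from these counts. The 16 genes of fatty acid synthesis, elongation and desaturation among them counted 4 higher and 6 lower in KMS-11 cells, 6 higher and 1 lower in KMS-12 cells, and 3 higher and 5 lower in RPMI8226 cells, to be set against the same shares. Of these FADS1, the delta-5 desaturase, fell by 2.26 ± 0.14 in KMS-11 and 1.30 ± 0.13 in RPMI8226 on the log2 scale and rose by 0.55 ± 0.12 in KMS-12 with TMM scaling, where the value was -0.22 with library size alone. ACSL5, which activates long-chain fatty acids, averaged 0.598 ± 0.106 CPM with JQ1 and 27.1 ± 0.241 CPM with DMSO in KMS-11 (SD, n = 2), and fell by 5.50 on the log2 scale there. It averaged 1.53 ± 0.757 CPM with JQ1 and 14.4 ± 0.962 CPM with DMSO in KMS-12 (log2 -3.22 ± 0.25), and 0.589 ± 0.162 CPM with JQ1 and 21.0 ± 1.78 CPM with DMSO in RPMI8226 (-5.11 ± 0.29). RXRA, the partner of LXR, fell in KMS-12 (-3.31 ± 0.19) and KMS-11 (-0.44 ± 0.12) and was not called in RPMI8226 (-0.02). HSD3B7, an enzyme of bile acid synthesis, fell in KMS-12 (-3.57 ± 0.33) and RPMI8226 (-3.01 ± 0.20), and was at 0.302 ± 0.110 CPM with JQ1 and 0.553 ± 0.0703 CPM with DMSO in KMS-11 (SD, n = 2). NFYA, the subunit of the factor that binds CCAAT boxes, rose in KMS-11 (0.83 ± 0.10), KMS-12 (0.85 ± 0.10) and RPMI8226 (0.94 ± 0.10), and no difference between lines was called (adjusted p = 0.810). DGAT1, which makes triglycerides, rose in KMS-11 (0.92 ± 0.16), KMS-12 (1.10 ± 0.14) and RPMI8226 (0.80 ± 0.15) too. In KMS-12 neither rise was called with library size alone, at 0.08 for NFYA and 0.33 for DGAT1. SOAT1, which esterifies cholesterol for storage, rose in KMS-11 (1.14 ± 0.10) and RPMI8226 (0.56 ± 0.09) and was not called in KMS-12 (0.10 ± 0.09), where it was -0.67 with library size alone.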

How the data were processed

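Total RNA was sequenced with stranded libraries after removal of ribosomal RNA, per the labels' protocols, in 12 libraries (6 groups of 2). The authors deposited raw read counts per Ensembl gene for 60666 genes, of which 60437 (99.62%) are paired with a symbol. The submitters' processing notes name hg38, GRCh38.p13, DESeq2 and MACS2, with no role; not given in the sources used here are the aligner, the counter, the annotation and any use of strand in counting. Library totals ran from 15424512 to 27366499 counts. After TMM scaling, 3 counts correspond to 0.107 to 0.178 CPM, a floor that covers counting error only.

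From these counts, genes were kept by edgeR's filterByExpr (minimum count 10, minimum total 15), scaled by TMM and tested with the quasi-likelihood test (glmQLFit, robust) of edgeR 4.0.16 in R 4.3.3, with limma 3.58.1. The fit had 6 groups and all 12 libraries, and every adjusted p is from this test with Benjamini-Hochberg adjustment over all genes tested; a call is an adjusted p under 0.05. CPM is after TMM, and RPKM divides it by the exon length of GENCODE 29, which also gave gene overlaps. Promoter windows and sequences are RefSeq's (GRCh38.p14). The test was run on simulated counts with known changes in KMS-11 alone. Those counts held no change in KMS-12, so that check does not bear on its scaling.

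The p-values set the difference between groups against the spread of libraries within groups, estimated over all 6 groups. The labels do not say that the libraries of a group came from separate cultures, so that spread may be technical. Library values are given for the up to 3 members of each gene group with the smallest adjusted p in the average of the lines, and the up to 3 with the smallest for any difference between lines; of other pathway genes, up to 4 higher and 4 lower in the average are named, except a gene that is not reported here. The members and lists were chosen with earlier results of these data known. The settings varied were library size alone, scaling by RLE or by TMM without abundant gene classes, no filter, DESeq2 1.42.0, replicate blocks, fits within a line, each library left out, and library size without MALAT1 and NEAT1, which was chosen after seeing the data.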

Additional observations from a re-analysis of the deposited data

Results flagged for a closer look

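With TMM scaling, the JQ1 response of 25 members differed among the lines by edgeR's test over all 3 lines. That of ABCG1 differed by the test between RPMI8226 and KMS-11. The widest pair of each is given as a difference of log2 fold changes. A total of 28 members differed in at least 1 pair, the other two being SC5D (RPMI8226 minus KMS-12, 0.53) and NPC1 (-0.60 for that pair, adjusted p = 0.0461), which the test over all lines did not call (adjusted p = 0.0581 and 0.0767). The NPC1 difference was lost without any 1 of 9 libraries (-0.46 to -0.67) and was 0.15 with library size alone. The response of RPMI8226 was below that of KMS-12 for HMGCS1 (-1.10), MVK (-0.77), MVD (-1.77), IDI1 (-2.91), FDPS (-0.83), SQLE (-2.49) and LSS (-1.62). The same held for TM7SF2 (-1.43), MSMO1 (-2.19), NSDHL (-1.12), HSD17B7 (-1.21), INSIG1 (-4.60), ABCA1 (-1.41) and MYLIP (-1.21). The MVK difference was not called without any 1 of 5 libraries: KMS-12 JQ1 replicate 2 (-0.61), KMS-12 DMSO replicate 1 (-0.72), KMS-12 DMSO replicate 2 (-0.83), RPMI8226 JQ1 replicate 2 (-0.65) or RPMI8226 DMSO replicate 1 (-0.58).

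The response of KMS-12 was above that of KMS-11 for FDFT1 (2.37), DHCR7 (1.65), LBR (1.13), STARD4 (2.46), SREBF1 (3.62) and SREBF2 (1.95). It was also above for NPC2 (1.81), FASN (3.36), SCD (4.53), ACACA (1.17) and ACLY (0.86). ABCG1, without reads in KMS-12, differed between RPMI8226 and KMS-11 (0.82). In KMS-12 these values depend on the scaling, which moves all of its genes together.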

How the results depend on the processing

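Of the alternative values computed for each member, comparison and count, 7019 kept their direction and side of the threshold, 154 gained a call, 249 lost one and 19 reversed. The settings named above for a gained call need not be all of them. With library size alone, KMS-11 had 1 member higher and 27 lower, KMS-12 9 and 12, and the average 2 and 22. That setting reversed, in KMS-12, HMGCS1 (-0.34), PMVK (-0.67), NSDHL (-0.01), HSD17B7 (-0.11), STARD4 (-0.28), INSIG2 (-0.77), SCAP (-0.48), NPC1 (-0.45), MYLIP (-0.17), SCD (-0.21) and ACACA (-0.23). In the average it reversed PMVK (-0.28), HSD17B7 (-0.30), LBR (-0.08), FASN (-0.29) and ACLY (-0.07), and between RPMI8226 and KMS-12 NPC1 (0.15) and ACLY (0.08). SCAP was also reversed in KMS-12 (-0.02) with library size without MALAT1 and NEAT1, a setting chosen after seeing the data. In that setting the median shift of all genes in KMS-12 from TMM was -0.31, against -0.77 with library size alone. The part that MALAT1 and NEAT1 play in the reversals was not tested.

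With 1 library left out, KMS-11 had 2 to 3 members higher and 10 to 20 lower, KMS-12 21 to 25 and 2 to 4, and RPMI8226 1 and 10 to 20. The average had 8 to 9 higher and 9 to 15 lower, and responses differed for 23 to 29 members among the lines, 19 to 26 between KMS-12 and KMS-11, 6 to 13 between RPMI8226 and KMS-11 and 24 to 27 between RPMI8226 and KMS-12. With 1 library in an arm, that library is assumed to vary like the others.

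With the replicate number as a block shared by the lines, KMS-11 had 2 members higher and 14 lower, KMS-12 23 and 4 and RPMI8226 1 and 17; with a block within each line, 3 and 17, 23 and 4, and 1 and 21. The same-numbered JQ1 and DMSO libraries deviated together with r of 0.106, 0.0122 and 0.104 across genes in KMS-11, KMS-12 and RPMI8226, against -0.0374 to 0.0472 between lines. The KMS-12 value lies within that range, so the number did not pair the libraries in every line and was not treated as a pairing; the values of KMS-11 and RPMI8226 lie above it. Members at low counts, CYP51A1 above all, are those that depth limits most.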
